A study of Azumapecten farreri with 9 samples.

Results

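Hemocytes of the Zhikong scallop were sequenced after injection with phosphate-buffered saline or with exosomes, and the comparison described here is that of the 3 libraries titled NOR_T with the 3 libraries titled PBS, 6 of the 9 libraries of the series. The PBS libraries carry the label of a PBS injection. The NOR_T titles and the group label of the same libraries contradict each other: the title points to normal exosomes, while the label gives exosomes obtained after stimulation with LPS, the lipopolysaccharide of bacterial cell walls. The remaining 3 libraries, titled LPS_T, carry the label of normal exosomes. Groups are therefore named by their titles throughout, and which exosome preparation the NOR_T animals received cannot be told from the sources used here. The tissue of all 9 libraries is hemocytes of *Chlamys farreri*, listed under the name *Azumapecten farreri*. No label gives the exosome dose, the donor, the time after injection or the age of the scallops. It is not stated whether libraries of a group derive from different scallops or from pooled hemolymph, so p-values here reflect only how much the libraries of a group scatter, and that scatter may be technical.

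Bivalves have no antibodies and rely on circulating hemocytes, which recognise microbes through lectins, scavenger receptors and Toll-like receptors, engulf them, degrade them in lysosomes and lay down extracellular matrix at wounds. Exosomes are small vesicles that form inside late endosomes and are released when these fuse with the cell surface. They carry proteins and RNA, and the cells that take them up route them through the endosomal and lysosomal system.

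The libraries held 19894628 to 45831950 estimated counts, and since 1 fragment gave between 3.76 and 3.83 counts, this corresponds to about 5250000 to 12200000 sequenced fragments. The shallowest library, PBS 1, also stood apart in content. In it, 17.8% of all counts lay in 2 genes of 1 scaffold that took at most 0.0979% in any other library, and 9865 genes reached 1 FPKM (the count of fragments per unit of gene length and of library depth), against 10537 to 11341 elsewhere. Its Spearman correlation with other PBS libraries was as low as 0.941 across genes, while the NOR_T libraries correlated at 0.958 to 0.961 with each other. Normalised counts below are counts scaled to library size after adjustment by trimmed means of M-values (TMM), which largely sets aside such dominant genes. All 5 tested hemocyte markers were detected in all 9 libraries. Their summed normalised count was 2838 to 2927 in NOR_T and 3500 to 3780 in PBS, with most of the difference in laccase-3, an enzyme of the phenoloxidase type, which ran at 2915, 3028 and 3182 in PBS and at 2258, 2174 and 2248 in NOR_T. The GATA-binding factor and a peroxidasin, the other 2 called members, were higher in NOR_T, by 0.39 ± 0.08 (SE) and 0.61 ± 0.06 on the log2 scale.

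Of 11678 genes tested, 2903 (24.9%) differed between NOR_T and PBS in edgeR's quasi-likelihood test at an adjusted p under 0.05. The 1331 genes higher in NOR_T were 11.4% of those tested, and the 1572 lower ones were 13.5%. Most changes were small. Only 252 genes (2.16%) rose and 583 (4.99%) fell at least 2-fold. The normalised counts of NOR_T and PBS did not overlap for 38.3% of genes, and the deposited FPKM values did not overlap for 30.4%. The split between directions depended on scaling: 45.8% of called genes were higher in the main analysis and 53.9% with scaling by library totals alone. With limma on log2(FPKM + 1) it was 57.9%, with 778 genes called higher and 565 lower. There the log2 changes of single genes shifted up from the main analysis by a median of 0.146. Small changes of whole gene groups are read below with this in mind. Counts of called list members are to be set against the 11.4% higher and 13.5% lower of all tested genes.

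The effect was spread over all levels of expression. Among 665 abundant genes, with a mean FPKM of at least 100, 147 were higher and 137 lower in NOR_T, and the median size of the called changes was 0.332 on the log2 scale. Among 3051 genes of middle level (FPKM 10 to 100), 502 were higher and 507 lower, with a median size of 0.428. Among 7035 genes of low level (FPKM 1 to 10), 629 were higher and 805 lower, with a median size of 0.865. The 927 genes under an FPKM of 1 had 53 higher and 123 lower, with the largest median size of the 4 tiers, 1.74. To be tested they still had to reach an FPKM of 1 in 3 of the 9 libraries, LPS_T included. In LPS_T, 228 of them were higher than PBS and 18 lower, so the filter may set the split and size of this tier. Abundant genes were thus called more often, with smaller called changes. These sizes cover called genes only, and scarce genes need a larger change to pass the test. They therefore do not show how far the genes of each tier moved.

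**Figure D1:**
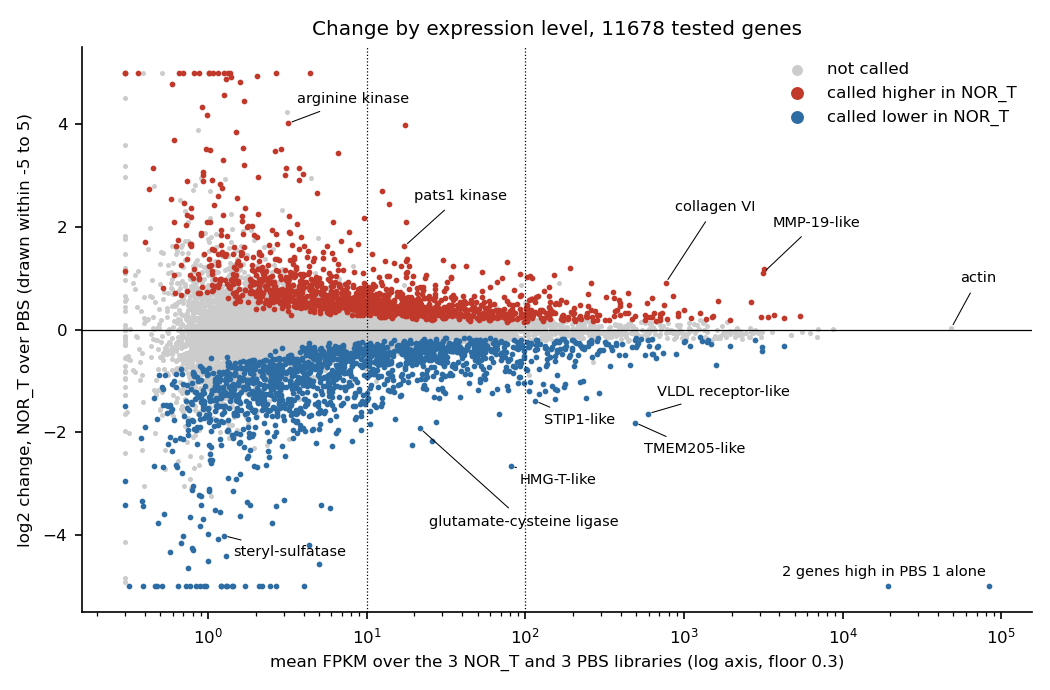
Each of the 11678 tested genes is plotted by its mean FPKM over the 6 libraries (log axis) and its log2 change from PBS to NOR_T, with called genes in colour and dotted lines at FPKM 10 and 100. Called changes are mostly under 1 log2 unit on the right, where actin sits near 0, and spread to the drawn limits among low genes; the 2 points at the lower right are the genes that dominate PBS 1 alone.

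The 10 most abundant genes whose descriptions name a protein were mostly level. Actin, the filament protein of the cell cortex, had a normalised count of 93950, 77441 and 84614 in PBS and of 81816, 90984 and 87047 in NOR_T, and its change of 0.02 ± 0.07 (SE) did not pass the test. Ferritin 2, an iron store, and elongation factor 1-alpha, which brings tRNA to the ribosome, likewise overlapped between the groups, with changes of 0.02 ± 0.06 and 0.01 ± 0.06. The same held for a TIMP2-like metalloproteinase inhibitor (-0.15 ± 0.07), a histidine-specific methyltransferase (-0.07 ± 0.06), an actophorin-like actin-binding protein (-0.06 ± 0.06) and the translationally controlled tumor protein (-0.11 ± 0.06).

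The 3 genes of this top group that did pass were a matrix metalloproteinase, the allograft inflammatory factor and an HSP70. The matrix metalloproteinase rose by 0.27 ± 0.08 (adjusted p = 0.016), a call lost when any of 4 single libraries was left out. Allograft inflammatory factor 1, a calcium-binding protein of macrophages and bivalve hemocytes, stood at 8527, 8071 and 7790 in PBS and at 9118, 9838 and 9596 in NOR_T. All 3 NOR_T libraries lay above all PBS libraries, a rise of 0.23 ± 0.06 (adjusted p = 0.0078), lost without NOR_T 3 and in the FPKM analysis. HSP70, which fell by 0.32 ± 0.06 (adjusted p = 0.00068), is taken up with the chaperones.

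Genes of the extracellular matrix and its turnover showed some of the strongest changes at high expression. Matrix metalloproteinases cleave collagen and other matrix proteins, and 4 of the 6 tested rose while none fell, in every scaling tried. Of 2 MMP-19-like genes close together on the minus strand of scaffold28041, the gene at 13159-18867 had a normalised count of 2506, 2654 and 2862 in PBS and of 5587, 5867 and 5773 in NOR_T. The second, at 24318-25339, had 872, 919 and 923 in PBS and 2018, 2029 and 2075 in NOR_T. The groups were far apart for both genes, with rises of 2.15-fold (log2 1.10 ± 0.07, adjusted p = 1.1e-08) and 2.26-fold (1.17 ± 0.06, adjusted p = 7.8e-10). As near copies the pair may share reads. The MMP-14-like gene, of a membrane-bound type, rose by 0.33 ± 0.06 (adjusted p = 0.0006). The LPS_T libraries, whose comparison shares the PBS libraries, had higher values still for all 4, and NOR_T was below LPS_T by 0.50, 0.48, 0.24 and 0.64 on the log2 scale for the MMP-19-like pair, the MMP-14-like gene and the abundant metalloproteinase, each an adjusted p under the threshold in the direct test.

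Collagens, the rod-shaped proteins of the matrix, moved in both directions: 5 of 21 tested rose and 5 fell. Of the rises, 4 were of genes with a mean FPKM of 106 or more, and the fifth, the steepest, was of a scarce alpha-1(III)-like chain at an FPKM of 3.27, from 3.3, 3.49 and 2.57 to 9.86, 12.8 and 11.7 (log2 1.89 ± 0.19, adjusted p = 3.4e-06). The most abundant, a collagen alpha-1(II)-like chain, had a normalised count of 9861, 10152 and 10383 in PBS and of 14332, 15055 and 14666 in NOR_T, a 1.45-fold rise (log2 0.54 ± 0.05, adjusted p = 1.8e-06) with no overlap. On the plus strand of scaffold61295, 3 collagen genes near each other rose together. The collagen alpha-6(VI)-like gene at 747307-750398 went from 1152, 975 and 1061 in PBS to 1843, 2092 and 2038 in NOR_T (log2 0.91 ± 0.07, adjusted p = 1.7e-07). The collagen alpha-5(VI) gene at 755465-758797 rose by 1.21 ± 0.07 (adjusted p = 3.5e-09), and the collagen XII-like gene at 775761-782110 rose by 0.58 ± 0.09 (adjusted p = 0.00014). In LPS_T the first of these was lower than in PBS (764, 798 and 737), so the exosome groups differed by 1.38 on the log2 scale (adjusted p = 1e-09).

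In the other direction, 1 further collagen alpha-5(VI) gene, on scaffold56559, had 4.79, 7.13 and 5.43 in PBS and none in any NOR_T library. This is at least 18.6-fold lower when each NOR_T library is set to 3 fragments. It passed the filter only through PBS or LPS_T values, so its absence in NOR_T is a description. Another, on scaffold64279, went from 7.78, 11.3 and 14.2 to 0.645, 0.377 and 0.783, and collagen alpha-3(VI) from 11.1, 6.53 and 5.39 to 2.32, 1.35 and 1.67. The NOR_T values were all under the lowest PBS value, and both falls passed the test (-4.19 ± 0.32 and -2.07 ± 0.32). The reads of such repeat-rich genes may be shared among copies.

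Other matrix genes moved both ways. Papilin, a secreted protein of basement membranes, rose by 0.59 ± 0.06 (adjusted p = 3.1e-06), and laminin gamma-1, a basement membrane subunit, by 0.55 ± 0.08 (adjusted p = 8.5e-05). Hemicentin-1, a very large matrix protein, fell by 0.60 ± 0.06, and a cartilage matrix protein-like gene fell from 658, 604 and 638 to 238, 252 and 253 (log2 -1.35 ± 0.06, adjusted p = 2.9e-10). The 7 tested integrins, the cell's receptors for matrix, had no call in either direction. Over the whole adhesion list of 69 genes, 18 were higher and 12 lower, and in the FPKM analysis 12 and 4.

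The largest falls among abundant named genes lay in membrane proteins. A transmembrane protein 205-like gene (scaffold8291, minus strand, 66014-71805) had a normalised count of 1330, 1189 and 1205 in PBS and of 346, 368 and 347 in NOR_T, 3.51-fold lower (log2 -1.81 ± 0.06, adjusted p = 8e-12). A very low-density lipoprotein receptor-like gene (scaffold4213, minus strand, 123501-130942), of the family that takes up lipoproteins by endocytosis, went from 1224, 1126 and 1081 to 333, 397 and 371, 3.12-fold lower (log2 -1.64 ± 0.07, adjusted p = 1.6e-10). Both groups were tight and far apart. The family did not move as a block: an LRP1-like gene fell by 1.37 ± 0.15, whereas a second very low-density lipoprotein receptor-like gene rose by 0.22 ± 0.05 and a low-density lipoprotein receptor-like gene by 0.43 ± 0.07. LPS_T was also far below PBS for the first pair, by 1.94 and 1.92.

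Cytosolic chaperones separated by class. HSP90 folds kinases and receptors with the help of partners that hand over clients, drive its ATP cycle or lock its closed form. Of 7 tested genes of this set 6 fell and none rose. HSP90 itself had a normalised count of 6944, 6897 and 6975 in PBS and of 4186, 4492 and 4289 in NOR_T (log2 -0.68 ± 0.05, adjusted p = 2.5e-07). The STIP1-like gene, whose product links HSP70 to HSP90, went from 443, 457 and 463 to 174, 176 and 171 (-1.39 ± 0.05, adjusted p = 7.1e-11). No library overlapped for either gene. The AHA1-like activator of the HSP90 ATPase fell by 1.05 ± 0.10. The p23-like gene, annotated as prostaglandin E synthase 3, fell from 194, 175 and 165 to 83, 91.1 and 92.4 (adjusted p = 2.2e-07). The hsc70-interacting protein fell by 0.96 ± 0.06 and the Cdc37-like kinase loader by 0.52 ± 0.06, the latter not called in the FPKM analysis. All 6 were lower still in LPS_T, and NOR_T was above LPS_T in the direct test for 5 of them, with a difference of 0.65 (adjusted p = 2.5e-07) for HSP90 and of 0.14 (adjusted p = 0.1) for Cdc37.

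HSP70-type genes, in contrast, rose in 7 of 11 cases and fell in 1. The gene that fell is the most abundant, with 13682, 13152 and 13204 in PBS and 10257, 11217 and 10707 in NOR_T; this call is lost with scaling by library totals (-0.23, adjusted p = 0.0693) and in the FPKM analysis (-0.16, adjusted p = 0.467). On scaffold2569 a pair of HSP68-like genes in opposite orientation rose about equally. The gene at 52281-54775 went from 205, 182 and 195 to 355, 399 and 402 (log2 0.99 ± 0.06, adjusted p = 2.1e-08), and that at 46414-48083 from 148, 106 and 122 to 228, 272 and 271 (1.04 ± 0.10, adjusted p = 2.4e-06). In both, every NOR_T library exceeded every PBS library. Of 2 HSP70 B2-like genes on scaffold8723, 1 rose by 1.07 ± 0.09 and the other by 0.47 ± 0.07, and 2 on scaffold17795 rose by 0.32 ± 0.06 and 0.39 ± 0.06. A partial HSP70 gene rose by 0.91 ± 0.06. Reads of these close copies may be divided among them by the counting.

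LPS_T behaved differently for this class: 6 of the 11 were lower than PBS there and none higher, and 9 of the 11 were higher in NOR_T than in LPS_T. The difference between the exosome groups was 1.62 (adjusted p = 1.5e-08) for the HSP68-like gene at 46414-48083. An HSP68-like gene on scaffold61451 did not change from PBS to NOR_T (0.05 ± 0.06, adjusted p = 0.59) but was 0.83 above LPS_T (adjusted p = 1.1e-07).

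Among the DnaJ proteins, which deliver substrates to HSP70, 4 of 29 rose (13.8%) and 6 fell (20.7%), against 11.4% and 13.5% of all tested genes. This balance turned to 5 and 4 with library totals. The abundant DnaJ B4-like gene rose by 0.47 ± 0.05 (adjusted p = 1.4e-05), while the DnaJ A1-like gene fell by 0.65 ± 0.06 and the C7-like gene by 1.09 ± 0.15. The zeta subunit of the chaperonin ring, which folds actin and tubulin, fell from 540, 470 and 475 to 205, 214 and 204. Tubulin-folding cofactor B, which acts downstream of that ring, fell from 136, 128 and 125 to 56.5, 55.3 and 51.9 (log2 -1.25 ± 0.08, adjusted p = 1.8e-08). It was the 1 fall among 6 tested tubulin-folding factors, of which the D-like and E-like chaperones rose slightly (0.28 ± 0.09 and 0.25 ± 0.07), calls absent with library totals and in several fits without 1 library (D-like without NOR_T 1, NOR_T 2, PBS 1 or PBS 2, E-like without NOR_T 2 or NOR_T 3, with changes of 0.23 to 0.29). For tubulins, the microtubule subunits, 10 of 20 fell and 2 rose. A pair of alpha-1A genes on scaffold8357 fell by 1.19 ± 0.10 and 1.13 ± 0.11, while 2 adjacent beta genes on scaffold42195 rose by 0.52 ± 0.06 and 0.59 ± 0.12 and a beta-4B gene of the same scaffold fell by 0.50 ± 0.06. A further beta-4B-like gene, with 4.42, 5.18 and 16.3 in PBS, had no count in NOR_T. This is at least 27.7-fold below the PBS mean of 8.62, which PBS 3 alone raised. Having no count in NOR_T, the gene passed the filter only through PBS or LPS_T values. Tubulin copies are similar in sequence, and the split between them is uncertain.

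**Figure D2:**
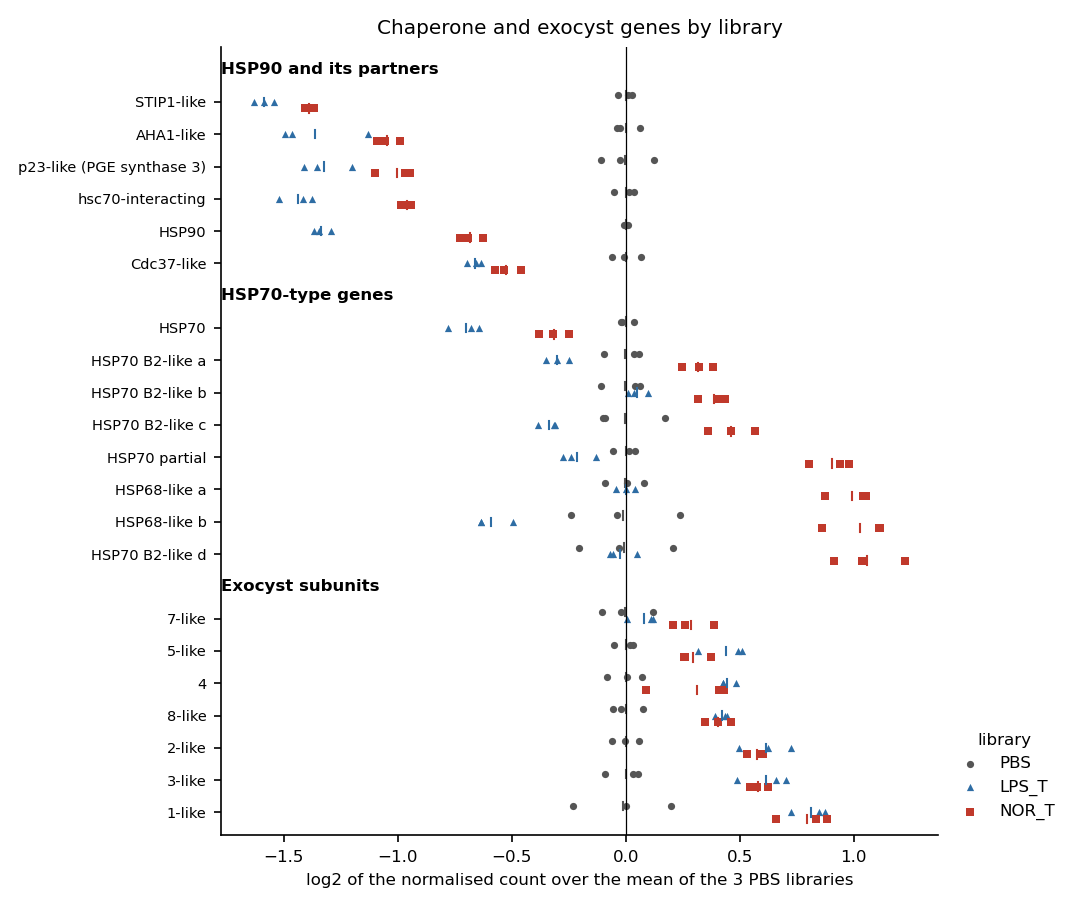
Normalised counts of HSP90 partners, HSP70-type genes and exocyst subunits are shown as log2 ratios to the mean of the 3 PBS libraries, 1 point per library, with a tick at the mean of each group. Only called genes are drawn: 6 of 7 tested HSP90-set genes, 8 of 11 HSP70-type genes and 7 of 8 exocyst genes. NOR_T squares lie left of PBS for the 6 HSP90-set genes drawn and right of PBS for 7 of the 8 HSP70-type genes drawn. They lie right of PBS for the 7 exocyst genes drawn, where LPS_T triangles lie on the same side except for the 7-like subunit.

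The exocyst, an assembly of 8 kinds of subunit that tethers secretory vesicles to the cell surface, rose almost as a whole: 7 of 8 tested genes were called higher in NOR_T and none lower, with a median log2 change of 0.36 against -0.0021 over all tested genes. The exocyst 1-like gene had a normalised count of 42.9, 50.4 and 57.7 in PBS and of 92.9, 79.6 and 89.8 in NOR_T (log2 0.79 ± 0.10, adjusted p = 2.8e-05). The exocyst 2-like and 3-like genes each rose by 0.58, with standard errors of 0.07 and 0.08. The 8-like, 4, 5-like and 7-like genes rose by 0.40, 0.32, 0.30 and 0.29, and the 6B-like gene had a change of 0.15 ± 0.11 with overlapping libraries. The exocyst 4 call was lost without NOR_T 1, NOR_T 3 or PBS 2 (0.26 to 0.28) and the 7-like call without NOR_T 2 or PBS 2 (0.24 and 0.23). Scaling by library totals left 5 calls and the FPKM analysis 3, all upwards. NOR_T and LPS_T did not differ in any exocyst gene beyond the threshold.

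The wider list of SNAREs, vesicle coats and tethers had 26 of 93 members higher and 2 lower, 19 and 0 with library totals and 11 and 0 in the FPKM analysis. The Golgi SNARE GOSR1, which acts in traffic within the Golgi, had 50.8, 54.6 and 60 in PBS and 70, 78.6 and 73 in NOR_T. It rose against PBS (0.42 ± 0.09, adjusted p = 0.0028), was lower than PBS in LPS_T (-0.73), and differed between the exosome groups by 1.15 (adjusted p = 1.5e-07). Coatomer gamma-2, a coat protein of Golgi vesicles, rose by 0.32 ± 0.07, sorting nexin-2, of the endosomal retromer, by 0.40 ± 0.06, and the AP-3 adaptor subunit mu-1, which sorts cargo to lysosomes, by 0.51 ± 0.09. The late-endosome tethers VPS8 and VPS18 rose by 0.60 ± 0.10 and 0.52 ± 0.11. The 2 that fell were a syntaxin-7-like SNARE of late endosomes (-0.37 ± 0.10) and a VAMP-associated protein (-0.33 ± 0.06), both lost with library totals and the first also without NOR_T 1 (-0.31) or PBS 2 (-0.28).

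Lysosomal proteases and sulfatases were in part lower. Of 7 tested cathepsins, the proteases of lysosomes, 4 fell, by 0.24 to 0.38 on the log2 scale (cathepsins D, Z, L and B), but none was called with library totals or in the FPKM analysis. Cathepsin L, the most abundant per length of these at an FPKM of 406, had a normalised count of 489, 534 and 530 in PBS and of 410, 464 and 403 in NOR_T, without overlap. Among 15 sulfatases, which remove sulfate from lipids and glycans, 6 fell and none rose, 3 with either of those settings. The steepest was an arylsulfatase B-like gene of scaffold27081, from 13.7, 12.9 and 13.2 to 0, 0.408 and 0.378 (adjusted p = 3.3e-05), and a second such gene of that scaffold, which may share reads with it, fell by 1.93 ± 0.21. A steryl-sulfatase went from 8.34, 4.67 and 5.24 to 0.454, 0.126 and 0.513 (log2 -4.01 ± 0.46, adjusted p = 1.1e-05). Against this, an abundant lysosomal alpha-mannosidase rose from 5125, 4660 and 4850 to 5564, 5986 and 5812 (0.25 ± 0.06, adjusted p = 0.0072), and subunit B of the proton pump rose by 0.39 ± 0.06, the only one of 13 pump genes called. The full lysosome list had 4 of 83 genes higher and 19 lower. The split was 4 and 22 with DESeq2 and 4 and 17 without PBS 1, but 4 and 5 with library totals and 3 and 4 in the FPKM analysis. The excess of falls thus depended on scaling.

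Exosome-related genes changed little as a group. ESCRT and tetraspanin genes form or mark exosomes. In their list, which also holds annexins, 8 of 63 rose (12.7%) and 4 fell (6.35%), and in the FPKM analysis 5 and 0. Of all tested genes, 11.4% rose and 13.5% fell. The tetraspanin CD63-like gene, at 3705, 3638 and 3516 in PBS, stood at 2944, 3170 and 3090 in NOR_T (log2 -0.24 ± 0.06, adjusted p = 0.0054), a call lost with library totals (-0.15, adjusted p = 0.27) and in the FPKM analysis (-0.08, adjusted p = 0.729). Rab genes are the switches of membrane traffic. With their regulators they made a list of 72, in which 7 rose (9.72%) and 5 fell (6.94%). In the FPKM analysis 4 rose and 1 fell. In the autophagy list, 5 of 35 rose (14.3%) and 3 fell (8.57%), and in the FPKM analysis 3 and 0. Sequestosome-1, an adaptor that links ubiquitin-tagged cargo to autophagosomes, rose from 878, 794 and 900 to 1309, 1430 and 1475 (0.71 ± 0.06, adjusted p = 6.7e-07), although LPS_T was below PBS (-0.17), a difference of 0.88 between the exosome groups. Beclin-1, which starts autophagosome formation, rose by 0.44 ± 0.10, and a Tax1-binding protein 1-like gene, whose vertebrate relative is an autophagy adaptor, fell from 62.6, 75 and 56.6 to 19.2, 19.8 and 19.3.

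Actins and actin filament regulators rose in 23 of 69 cases and fell in 6. The counts were 12 and 3 in the FPKM analysis, and 23 and 3 without the library PBS 1. Actin-interacting protein 1, which helps take filaments apart, went from 90.9, 114 and 120 to 178, 165 and 170 (log2 0.65 ± 0.08, adjusted p = 3.3e-05). Plastin-3, a filament bundler, rose by 0.46 ± 0.07, and cortactin, which stabilises branches, by 0.40 ± 0.07. Of the Arp2/3 complex, which starts new branches, actin-related protein 2 rose by 0.37 ± 0.05 and subunit 3 by 0.32 ± 0.06. Filamin-A, a crosslinker, rose by 0.24 ± 0.07, a call lost without NOR_T 3 (0.23) or PBS 2 (0.17). A fascin-like bundler and a cytoplasmic actin 1-like gene fell, by 1.39 ± 0.25 and 1.30 ± 0.12. The actin 1-like gene was higher than PBS in LPS_T (0.34), with a difference of -1.64 between NOR_T and LPS_T. For 33 muscle markers, several of which hemocytes also express, 8 were higher and 1 lower (3 and 1 in the FPKM analysis), and none was at 0 throughout a group. Their summed level ran from 11102 to 11760 in PBS and from 12237 to 12919 in NOR_T.

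Genes of the motile cilium were lower in NOR_T, but those of ciliary transport were not. Axonemal dyneins are the motors of cilia and sperm tails; 9 of 14 fell and 2 rose. Of 37 genes for cilia- and flagella-associated proteins, radial spokes and tektins, which build the axoneme, 24 fell and none rose, with a median log2 change of -0.81. In the FPKM analysis, 5 and 14 of the falls were called. The 25 genes of intraflagellar transport and the Bardet-Biedl complex, which most ciliated cells need for assembly, gave 1 fall and 2 rises. Among those, Bardet-Biedl syndrome 5 rose from 11.1, 15.8 and 16.9 to 33.2, 33.4 and 28.7 (1.10 ± 0.15, adjusted p = 4.9e-05). In bulk hemocytes, fewer ciliated or germ cells and less RNA per cell cannot be told apart.

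Single axonemal genes showed the pattern without overlap. A tektin-2-like gene, for a filament protein of the axoneme, had 18.1, 22.5 and 19.4 in PBS and 6.54, 9.48 and 7.97 in NOR_T (log2 -1.33 ± 0.15, adjusted p = 8e-06), and 2 tektin-3-like genes fell by 1.59 ± 0.24 and 1.44 ± 0.17. An axonemal dynein light chain 1-like gene fell by 1.50 ± 0.15. The 2 dyneins that rose were a flagellar outer-arm beta chain (1.06 ± 0.13) and dynein heavy chain 1 (1.17 ± 0.18), neither called in the FPKM analysis. The FOXJ1-B-like factor, which in vertebrates switches on motile cilium genes, fell by 1.01 ± 0.27 (adjusted p = 0.011) at an FPKM of 0.862, a call lost without NOR_T 1 (-0.83) or PBS 3 (-0.87).

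Testis kinases and meiosis genes moved with them: 10 of 19 fell and none rose. TSSK4, a kinase of spermatids, fell by 1.79 ± 0.28. DMC1, a recombinase of meiosis, went from 7.85, 8.94 and 5.79 to 3.96, 4.77 and 4.43 (-0.78 ± 0.19, adjusted p = 0.0063), and synaptonemal complex protein 3 fell by 0.91 ± 0.17. SPO11, which cuts DNA to start recombination, fell by 2.68 ± 0.55 at very low counts. The other-cell marker lists as a whole gave 46 of 105 cilium markers lower and 5 higher, 22 of 52 gonad markers lower and 3 higher, 13 of 57 nerve markers lower and 7 higher, and 2 of 6 digestive gland markers lower. In the FPKM analysis the cilium list had 22 lower and 2 higher and the gonad list 15 and 3. The nerve list turned to 5 lower and 7 higher with library totals and 0 and 4 in the FPKM analysis, and no digestive gland marker was called in either. No cilium or gonad marker was at 0 in every library of a group, and 1 digestive gland marker was at 0 in all PBS and NOR_T libraries. How much such cells contributed to the changes elsewhere was not tested.

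**Figure D3:**
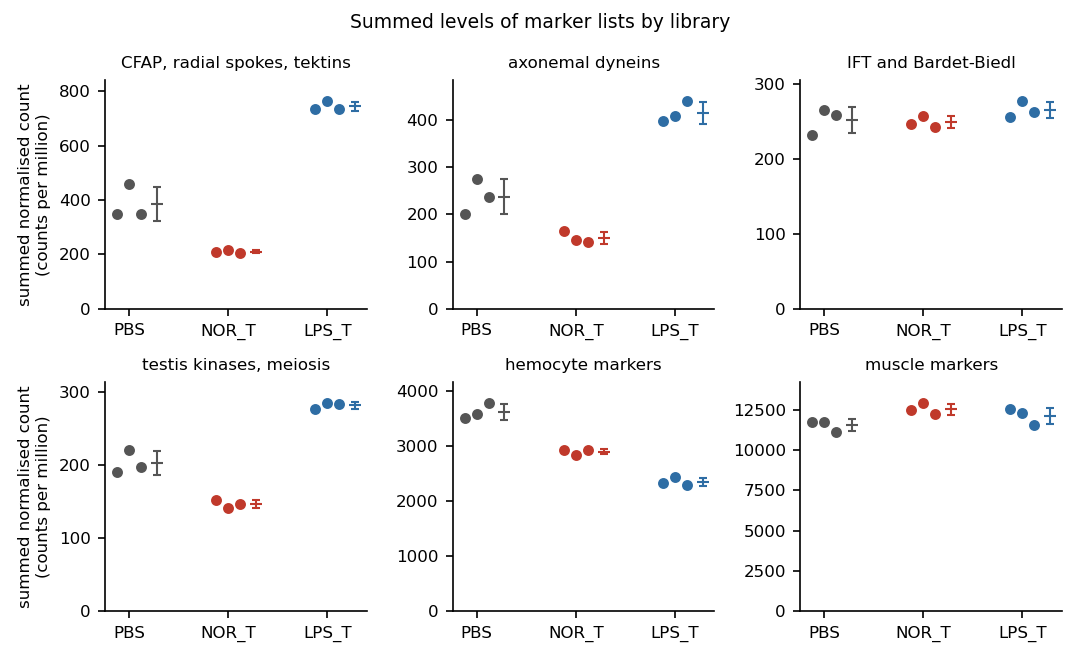
Summed normalised counts of 6 gene lists are shown for every library, with the mean and SD of each group of 3 beside the points and axes starting at 0. Axonemal and testis lists are lowest in NOR_T and highest in LPS_T, the intraflagellar transport list is level, and the hemocyte list is highest in PBS.

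LPS_T lay on the opposite side of PBS for these lists. The axonemal structure genes summed to 349.5 to 459.3 in PBS, to 205.6 to 217.3 in NOR_T and to 733.8 to 765.5 in LPS_T. In LPS_T, 30 of the 37 were higher than PBS and none lower, and in the direct test 32 were lower in NOR_T than in LPS_T. The testis kinase and meiosis genes summed to 190.4 to 220.8, 140.9 to 151.6 and 276.5 to 284.9 in the same order.

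Immune genes did not move as a block. In the interferon-type list, 5 of 26 rose (19.2%) and 9 fell (34.6%), against 11.4% and 13.5% of all tested genes. A neighbouring pair of interferon regulatory factors on the plus strand of scaffold27749, transcription factors of antiviral programmes in vertebrates, both fell. The IRF1 gene at 180464-209376 had 75.5, 76.4 and 63.7 in PBS and 42.3, 44.6 and 39.3 in NOR_T (log2 -0.77 ± 0.09, adjusted p = 1.7e-05), and the IRF2-like gene at 163726-170290 fell by 1.50 ± 0.11. In LPS_T, IRF1 was likewise below PBS (-0.55) while IRF2-like was not called (0.06, adjusted p = 0.7).

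Copies annotated as interferon-induced protein 44-like, GTP-binding proteins induced by interferon in vertebrates, changed in both directions. On scaffold64833, 1 copy fell from 6.48, 4.91 and 6.69 to 0.358, 0.596 and 1.13 (log2 -3.11 ± 0.42, adjusted p = 6.2e-05) and a second copy by 2.02 ± 0.43. On other scaffolds, a copy at 50.1, 39.3 and 41 in PBS rose to 62.4, 71.9 and 66.5 (0.63 ± 0.10, adjusted p = 0.00021), another from 1.06, 1.59 and 2.35 to 7.19, 6.53 and 5.7 (1.90 ± 0.26), and a further copy by 0.76 ± 0.15. The groups did not overlap in any of these 5. An interferon alpha-inducible protein 27-like gene fell by 1.47 ± 0.17. How reads were divided among the copies is uncertain.

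Inhibitors of apoptosis, which block caspases, showed the same divergence within 1 scaffold. On scaffold41437, the genes at 36060-48268 and 54339-58210 rose and those at 81886-88621 and 92026-94029 fell. The second gene had 234, 208 and 233 in PBS and 402, 384 and 408 in NOR_T (log2 0.82 ± 0.06, adjusted p = 7.8e-08). The fourth, BIRC7-like, had 1040, 953 and 936 in PBS and 669, 726 and 718 in NOR_T (-0.47 ± 0.06, adjusted p = 2.3e-05). All 4 genes were lower than PBS in LPS_T, so the first and second were of opposite sign in the exosome groups, which differed by 0.66 and 1.41. Over 27 tested members, 4 rose (14.8%) and 9 fell (33.3%), and in the FPKM analysis 3 and 3.

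All 4 called caspases, the proteases that carry out apoptosis, were higher in NOR_T. A head-to-head pair on scaffold64101, caspase-7 (minus strand, 104734-120780) and a caspase-3-like gene (plus strand, 122348-140229), rose by 0.40 ± 0.09 and 0.65 ± 0.09. The caspase-3-like gene had 25.4, 26.5 and 25.4 in PBS and 39.5, 38.7 and 43.2 in NOR_T. A further caspase rose from 74.9, 85.4 and 79.2 to 122, 105 and 114 (0.50 ± 0.08, adjusted p = 0.00021). Members of both sides of the Bcl-2 family, which guards the mitochondrial membrane, rose: Bcl-2 by 0.24 ± 0.04 and the BAX-like gene by 0.29 ± 0.09, the latter lost without NOR_T 1, NOR_T 2 or PBS 1 (0.23 to 0.28). Bax inhibitor-1, a membrane protein of the endoplasmic reticulum, fell by 0.45 ± 0.06. In the list of 26, 6 rose (23.1%) and 3 fell (11.5%), and in the FPKM analysis 4 and 0.

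**Figure D4:**
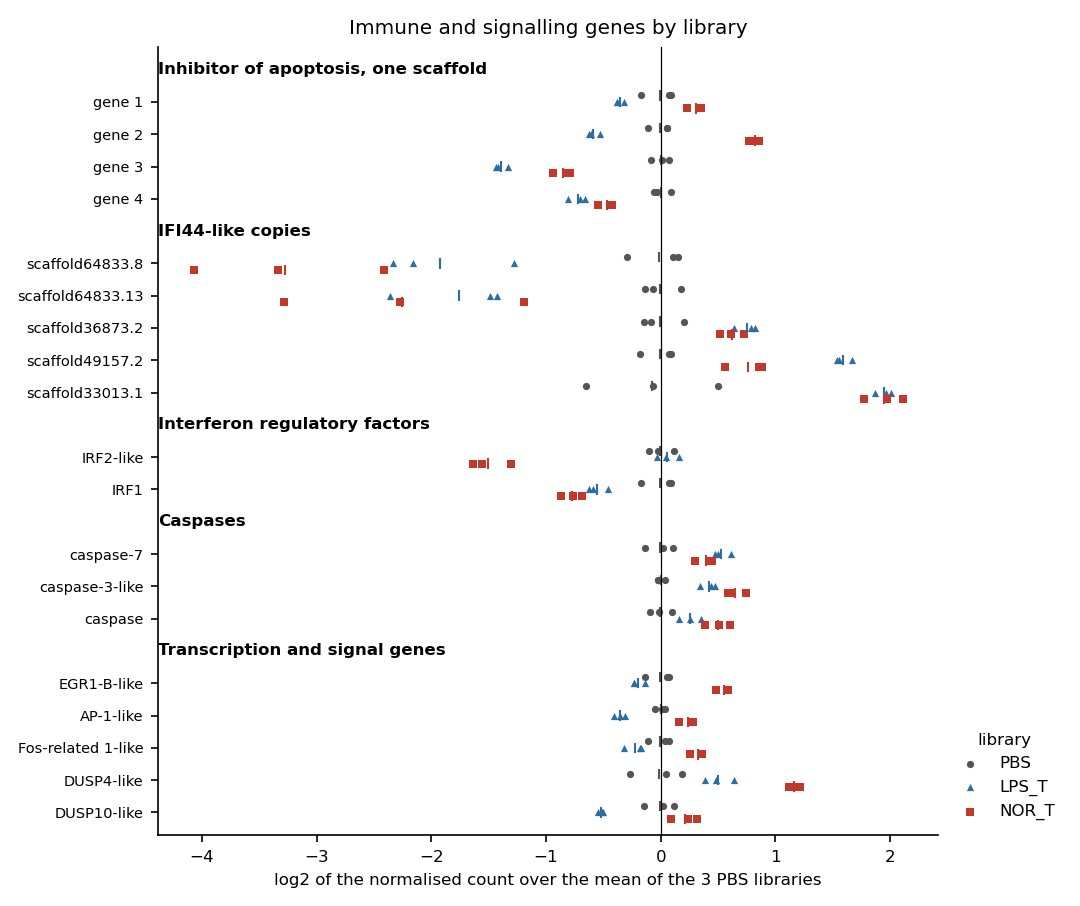
Normalised counts of immune and signalling genes are shown as log2 ratios to the mean of the 3 PBS libraries, 1 point per library with a tick at each group mean; genes of the inhibitor of apoptosis group are numbered along scaffold41437, and IFI44-like copies are named by scaffold and gene number. NOR_T squares lie on both sides of PBS within the inhibitor of apoptosis and IFI44-like groups, and NOR_T and LPS_T lie on opposite sides for the EGR1-B-like, AP-1-like and Fos-related genes.

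Recognition genes changed singly. Of 22 genes of the Toll, IL-17 and NF-kB list, 4 rose and 4 fell (18.2% each), 2 and 1 in the FPKM analysis. The shares of all tested genes were 11.4% higher and 13.5% lower. A Toll gene fell from 119, 94.9 and 101 to 62.9, 71.9 and 58.4 (log2 -0.70 ± 0.10, adjusted p = 0.00014). A TLR4-annotated gene rose from 45.8, 55.4 and 50.5 to 68.7, 68.4 and 64.1 (0.40 ± 0.08, adjusted p = 0.002), and a second, low one rose by 2.22 ± 0.32. MyD88-3, an adaptor below Toll receptors, had a change of 0.75 ± 0.25 (adjusted p = 0.041) that was lost in the FPKM analysis, with only the 2 groups fitted (adjusted p = 0.143), without any 1 of the LPS_T libraries, and without NOR_T 2 (0.52, adjusted p = 0.182) or PBS 2 (0.58, adjusted p = 0.153). It was 1.53 higher again in LPS_T. The NF-kB inhibitor alpha-like gene and the NF-kB essential modulator, which hold back and release that factor, fell by 0.62 ± 0.11 and 0.45 ± 0.12, again not in the FPKM analysis. Lectins, which bind sugars on microbes, were listed with C1q, fibrinogen-related and peptidoglycan recognition proteins. Of these 38 genes, 4 rose (10.5%) and 6 fell (15.8%). This balance turned with scaling, to 4 and 2 with library totals and 5 and 0 in the FPKM analysis. It was 3 and 9 without PBS 1. Scavenger and phagocytic receptors rose in 4 (11.4%) and fell in 10 (28.6%) of 35 cases, and in 1 and 3 in the FPKM analysis. A fibrinogen-like gene, a macrophage mannose receptor and collectin-12 fell by 0.39 ± 0.07, 0.52 ± 0.11 and 0.48 ± 0.10, none of them called in the FPKM analysis.

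In a list of 95 transcription factors 19 rose (20%) and 15 fell (15.8%), against 11.4% and 13.5% of all tested genes. The balance depended on scaling, with 18 and 8 under library totals and 13 and 2 in the FPKM analysis. Given here are 3 abundant factors of the immediate-early kind, picked with their values in view. EGR1-B-like, a zinc finger factor switched on by MAP kinase signals, had a normalised count of 5254, 4543 and 5211 in PBS and of 6980, 7477 and 7504 in NOR_T (log2 0.55 ± 0.07, adjusted p = 1.6e-05). The AP-1-like factor, of the Jun family, went from 2663, 2514 and 2627 to 2904, 3171 and 3134 (0.24 ± 0.06, adjusted p = 0.0064, not called in the FPKM analysis), and its Fos-related partner rose by 0.32 ± 0.06. No PBS library reached the lowest NOR_T value in these 3. In LPS_T all 3 were below PBS, by 0.20, 0.36 and 0.22, and the exosome groups differed by 0.75, 0.59 and 0.54. Dual-specificity phosphatases, which switch MAP kinases off, rose in 3 of 12 cases and fell in none, with 2 rises left under library totals and 1 in the FPKM analysis. DUSP4 went from 29, 21.2 and 26.4 to 55.5, 56.5 and 59.5 (1.17 ± 0.11, adjusted p = 2e-06). The calls of the other two were weak. DUSP7, at 0.19 ± 0.06, was not called in the FPKM analysis, with only the 2 groups fitted, or without PBS 2, PBS 3, NOR_T 2, NOR_T 3 or LPS_T 1 (0.15 to 0.19, adjusted p = 0.0621 to 0.15). DUSP10, at 0.22 ± 0.07 with overlapping libraries, was not called with library totals, in the FPKM analysis, or without PBS 2, NOR_T 2 or NOR_T 3 (0.15 to 0.21, adjusted p = 0.0713 to 0.15).

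Some genes that rose in NOR_T were far higher in LPS_T. An ETS-family transcription factor had 286, 274 and 277 in PBS and 350, 388 and 371 in NOR_T (log2 0.41 ± 0.05, adjusted p = 4.2e-05), and was 1.89 below LPS_T (adjusted p = 2.1e-12). Acyl-CoA synthetase family member 2, which activates fatty acids, rose by 0.61 ± 0.06 and was 1.60 below LPS_T. Sestrin-1, a stress-induced regulator of growth, rose by 0.34 ± 0.05 and was 0.56 below LPS_T. Other regulators differed more from PBS: the cwo-like repressor of the circadian clock fell by 1.70 ± 0.18, the Wnt-pathway factor TCF7L2 rose by 0.90 ± 0.11, and 4 of 8 genes annotated as the kinase pats1 rose while none fell. The pats1 gene on scaffold1775 went from 17.6, 21.5 and 19.7 to 62.3, 59.4 and 59.5 (1.62 ± 0.10, adjusted p = 1.4e-08), 1.48 above LPS_T.

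Cytochrome P450 enzymes oxidise foreign and lipid compounds. Of 53 such genes, 18 fell and 5 rose; the falls numbered 13 with library totals and 10 in the FPKM analysis. A CYP2F2-like gene, the most abundant per length of those named here at an FPKM of 204, went from 644, 617 and 606 to 369, 385 and 384 (log2 -0.71 ± 0.05, adjusted p = 7.1e-08). CYP26A1, annotated for the enzyme that degrades retinoic acid, fell by 1.96 ± 0.21. A CYP3A2-like gene rose from 12.2, 13.2 and 13.2 to 26.6, 26.7 and 25.7 (1.03 ± 0.11, adjusted p = 3.6e-06), and mitochondrial CYP12d1-like and CYP4F6 genes rose by 1.63 ± 0.16 and 1.11 ± 0.15.

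The catalytic subunit of glutamate-cysteine ligase, the rate-limiting enzyme of glutathione synthesis, fell from 90.9, 86.7 and 91.5 to 23.4, 23.9 and 23.7 (log2 -1.92 ± 0.09, adjusted p = 7.8e-10), the libraries of each group nearly equal. A glutathione peroxidase fell by 1.39 ± 0.19, while peroxiredoxin-2, which removes peroxides, rose by 0.40 ± 0.06. Arachidonate 5-lipoxygenase, which starts leukotriene synthesis, fell from 171, 153 and 170 to 97.7, 108 and 101 (-0.69 ± 0.07, adjusted p = 1.9e-06). Prostaglandin reductase 1 and 15-hydroxyprostaglandin dehydrogenase, which inactivate prostaglandins, rose by 0.57 ± 0.06 and 1.47 ± 0.37.

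In central metabolism the changes were smaller. Of 26 genes of the citrate cycle, 8 rose and 1 fell, but only 1 rise was called in the FPKM analysis. Citrate synthase, aconitase and mitochondrial isocitrate dehydrogenase, 3 successive steps, rose by 0.31 ± 0.08, 0.30 ± 0.07 and 0.27 ± 0.07, the first not called without NOR_T 2 (0.22, adjusted p = 0.0547). Cytosolic serine hydroxymethyltransferase, which feeds one-carbon units into nucleotide synthesis, went from 26.3, 26.6 and 22.5 to 67.1, 62 and 64.1 (log2 1.36 ± 0.09, adjusted p = 2.2e-08), while phosphoserine aminotransferase, upstream of serine, fell by 0.55 ± 0.12. An opine dehydrogenase, which in molluscs regenerates NAD without oxygen, rose from 4.73, 4.48 and 3.55 to 14, 14.1 and 11 (1.63 ± 0.19, adjusted p = 1.2e-05) and was 1.50 above LPS_T. Hexokinase-1 fell by 0.68 ± 0.12 and hexokinase-2 rose by 0.61 ± 0.13. Large housekeeping assemblies had small median log2 changes: 0.0206 for the respiratory chain, 0.0617 for the proteasome and -0.0795 for cytosolic ribosomal proteins. In the same order, 4 of 69 (5.8%), 7 of 54 (13%) and 0 of 68 were called higher. Those called lower were 2 (2.9%), 0 and 6 (8.82%). All tested genes gave 11.4% higher and 13.5% lower. In the FPKM analysis the last 2 sets had no call.

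**Figure D5:**
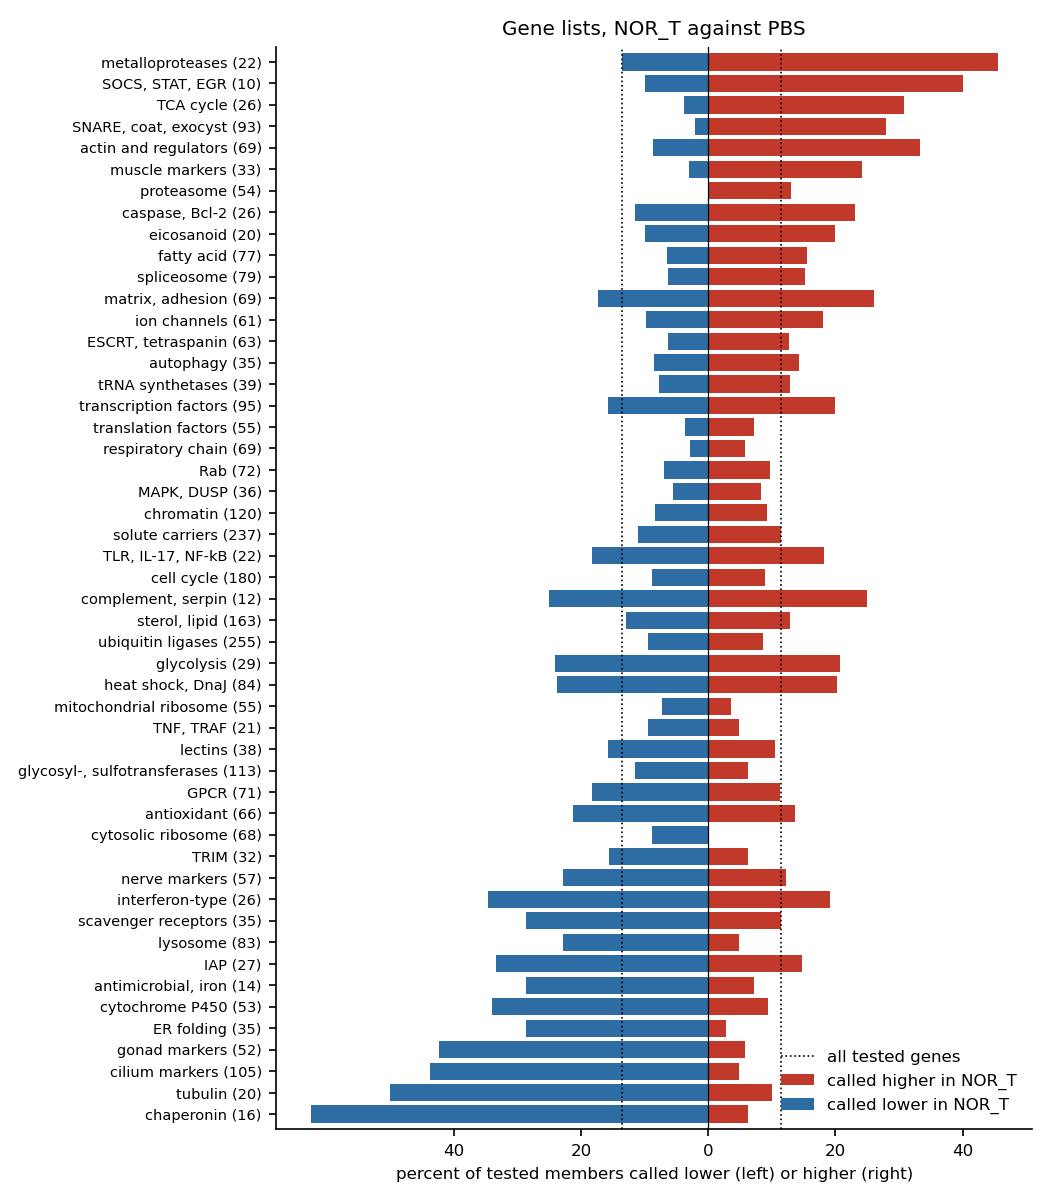
For each gene list with at least 10 tested members (number in brackets), bars show the percent called higher (right) and lower (left) in NOR_T, and dotted lines mark the 11.4% and 13.5% of all tested genes. The lists are ordered by the difference of the bars, with metalloproteases, the SOCS, STAT and EGR list, the TCA cycle, vesicle traffic and actin at the top and chaperonin, tubulin, cilium and gonad lists at the bottom.

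A few genes had counts in NOR_T alone. Since testing required an FPKM of 1 in 3 libraries, such genes entered the analysis only through their NOR_T values, and their presence is a description. A partial perlucin-like gene, for a shell-type C-type lectin, had 3.1, 3.58 and 3.13 in NOR_T and no count in any PBS or LPS_T library, at least 8.05-fold above PBS and 12.4-fold above LPS_T. A gamma-glutamylcyclotransferase-like gene of glutathione turnover (2.22, 2.82 and 2.78 in NOR_T), an E75-like nuclear receptor and a thiopurine S-methyltransferase-like gene also had none elsewhere, at least 6.42-fold, 5.71-fold and 4.81-fold above PBS. These bounds rest on few fragments. A tribbles homolog 2-like gene was higher in NOR_T (adjusted p = 0.0014), but 1 library stood apart, with 20.5 in NOR_T 1 against 5.21 and 5.02.

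Between NOR_T and LPS_T, 2509 genes differed in the direct test (21.5%), 1038 higher in NOR_T (8.89%) and 1471 lower (12.6%). Of the 2903 genes called against PBS, 1219 (42%) were also called between the exosome groups. For 272 genes both exosome groups were called against the shared PBS libraries in opposite directions and also called against each other. Of these, 35 were higher in NOR_T than in PBS and 237 lower, 166 had a descriptive name, and 38 were in the cilium list. Without PBS 1, the number higher in NOR_T than in LPS_T was 1505.

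The table's own annotation terms comprised 101 KEGG pathways and 556 GO terms of 15 to 300 tested genes. The median pathway had 13.9% of its genes higher and 12.2% lower, the median GO term 13% and 11.4%. Among pathways, the largest shares of higher genes were in regulation of actin cytoskeleton (6 of 18, with 1 lower), other autophagy (7 of 25, 2 lower), GPI-anchor biosynthesis (6 of 22, 1 lower) and AGE-RAGE signaling (13 of 48, 4 lower). Next came beta-alanine metabolism (7 of 26), the pentose phosphate pathway (6 of 23), starch and sucrose metabolism (6 of 23, with 6 lower) and fatty acid degradation (12 of 47, with 9 lower). The largest shares of lower genes were in linoleic acid metabolism (12 of 32, with 4 higher), arachidonic acid metabolism (19 of 58, 5 higher) and phagosome (30 of 99, 17 higher), followed by the xenobiotic P450 pathway (10 of 34) and galactose metabolism (9 of 31). Endocytosis had 33 of 189 genes higher and 11 lower, and the spliceosome 27 of 130 higher and 11 lower.

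Among GO terms, the largest shares of higher genes were in cortical actin cytoskeleton organization (7 of 15, 1 lower), actin filament (9 of 23, 1 lower) and intra-Golgi vesicle-mediated transport (6 of 16, none lower). Cell morphogenesis (7 of 19), exocytosis (9 of 27), the ER-Golgi intermediate compartment, syntaxin binding and Ran GTPase binding (each 5 of 15) followed. Lower genes had their largest shares in cilium movement (13 of 21), dynein complex (11 of 21), serine-type endopeptidase inhibitor activity (8 of 17, with 5 higher) and microtubule-based process (19 of 44). Immune response (7 of 17) and unfolded protein binding (19 of 51, with 7 higher) came after them. Among the serine protease inhibitors, a dipetalogastin-like gene fell from 344, 272 and 294 to 181, 205 and 197 (log2 -0.64 ± 0.08), while 2 leukocyte elastase inhibitor-like genes rose by 0.93 ± 0.11 and 1.33 ± 0.20. The terms share genes with each other and with the lists above.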

How the data were processed

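Hemocyte poly(A) RNA was sequenced as paired ends with an unstranded kit, per the labels' protocols. HISAT, StringTie and edgeR are named in the submitters' processing notes, without versions, and no genome build is named in the labels. The authors deposited estimated counts and FPKM per gene in 1 table. The counts were already whole numbers, and 1 fragment contributed about 3.8 of them. Testing was limited to the 11678 of 21617 genes whose FPKM reached 1 in 3 or more libraries. edgeR 4.0.16 (R 4.3.3) was run with TMM scaling and the quasi-likelihood test on all 9 libraries, with Benjamini-Hochberg adjustment over all tested genes. Standard errors were derived from the log2 change and the F statistic (change over root F). In simulated data of this design 200 of the 11678 genes were changed, far fewer than the 2903 called in the real data. The test recovered 23.9%, 59.7% and 92.4% of those changed by 0.5, 1 and 2 on the log2 scale (67, 67 and 66 genes). Of its calls, 6.4% were false. The adjustment is stricter where fewer genes change, so these rates may not hold for the real data. Bounds for genes at 0 set the mean of the other group against 3 fragments per library and cover counting error only, not the spread between libraries.

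The members and lists were chosen with earlier results of these data known, list patterns were trimmed and smaller lists (exocyst, HSP90 partners, matrix metalloproteinases and others) drawn after values were seen, and lists are therefore described by counts without a test. Genes were named by a rule: the 6 largest called changes per direction in each tier of expression with separate FPKM ranges, the 2 smallest adjusted p per list and direction, and the 10 most abundant. It gave 218 genes, and 120 of them are among the 230 examined for the text. The rest of the 218 were left out. The plan allowed fewer to be named and set no rule for which. The other 110 of the 230, which complete a complex, family or neighbourhood, were picked with their values in view. The planned permutation test of summed marker levels is not reported. Replicate pairs within a group differed by 2.1 to 2.91 times the counting noise, so none of these was a pair of copies. Pairs with PBS 1 gave 7.56 and 8.19, but libraries were scaled there by raw sums, which include the 2 genes that dominate PBS 1. Libraries of different groups were not checked in this way. Alternatives were library totals, DESeq2 1.42.0, limma 3.58.1 on log2(FPKM + 0.1) or log2(FPKM + 1), other filters, a replicate block and leaving out each library.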

Additional observations from a re-analysis of the deposited data

Results flagged for a closer look

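For 28 of the genes examined for the text, NOR_T and LPS_T were both called against PBS but in opposite directions, and the direct edgeR comparison of the exosome groups was also past its threshold. The values below are log2 differences, NOR_T minus LPS_T. Genes above PBS in NOR_T and below it in LPS_T were the HSP70-type genes on scaffold17795 (0.617), scaffold8723 (0.802), scaffold44765 (1.12) and scaffold2569 (1.62), the collagen alpha-6(VI)-like gene (1.38), the allograft inflammatory factor (0.435), the Golgi SNARE (1.15) and sequestosome-1 (0.881). The first 2 inhibitors of apoptosis on scaffold41437 (0.664 and 1.41), the EGR1-B-like (0.748), AP-1-like (0.594) and Fos-related (0.544) factors and the DUSP10-like phosphatase (0.737) had the same order.

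Genes below PBS in NOR_T and above it in LPS_T were mostly of the axoneme and the testis. They were dynein heavy chain 7 (-2.73), 2 tektin-3-like genes (-2.55 and -2.04), the tektin-2-like gene (-2.26), the DnaJ B13-like gene (-2.34), testis-specific alpha tubulin (-1.98) and FAM166B-like (-2.27). The TSSK4-like kinase (-2.53), meiosis expressed gene 1 (-2.1), synaptonemal complex protein 3 (-1.53) and DMC1 (-1.36) followed the same pattern. So did a myosin-3-like gene (-2.73), a muscle-form glycogen phosphorylase-like gene (-2.15) and the cytoplasmic actin 1-like gene (-1.64). The titles and group labels of both exosome groups contradict each other, so these differences are between titles.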

How the results depend on the processing

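Of 214 called genes examined for the text, 147 kept their call in every one of the 20 alternatives that tested them. In 1 of the 20, meant to leave out genes over 1% of a library, those genes stayed in. It repeated the main fit, with all 2903 calls shared, and could lose none. Most losses came with limma on FPKM, and no called gene changed direction. Among those lost with limma on FPKM, beside the ones named with their result, were laccase-3, hemicentin-1, the lysosomal alpha-mannosidase, cortactin, DMC1, the BIRC7-like gene, Bcl-2, Bax inhibitor-1, a TLR4-annotated gene, hexokinase-1 and phosphoserine aminotransferase. Against PBS, genes higher in NOR_T numbered 686 with limma on log2(FPKM + 0.1) and 778 with a pseudocount of 1, against 1331 in the main analysis. Genes lower numbered 526 and 565 in these, and 924 with library totals, against 1572. Between the exosome groups, genes higher in NOR_T numbered 491 with library totals and 303 and 356 with limma, and genes lower 953 with an FPKM filter of 5 and 908 with limma and a pseudocount of 0.1. Leaving out 1 library at a time gave 960 to 1297 higher and 1253 to 1523 lower against PBS, and 709 to 1505 higher and 1115 to 1583 lower against LPS_T; the cause was not tested. Library titles share the numbers 1 to 3, but same-numbered libraries did not deviate together (correlations -0.025 to 0.08), so the numbers are not taken to pair them. A fit with the number as a block called 1272 higher and 1521 lower against PBS and 985 and 1438 against LPS_T.

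The changes that switched sign were all of uncalled abundant genes near 0. Leaving out single libraries gave -0.046 to 0.101 for actin, -0.0254 to 0.0934 for ferritin 2 and -0.0241 to 0.0585 for elongation factor 1-alpha. With limma on FPKM the TIMP2-like gene came to 0.00685, the histidine-specific methyltransferase to 0.0901, the actophorin-like gene to 0.0961 and the tumor protein to 0.0493; with library totals the methyltransferase and actophorin-like gene came to 0.0252 and 0.0268. Changes of 0.5 on the log2 scale were seldom recovered in the simulation, which changed only 200 genes against 2903 called in the real data. That rate may not apply here, so lists of small changes may be incomplete to an unknown degree.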
